A study of Arabidopsis thaliana with 6 samples.

Results

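Glutathione S-transferases (GSTs) are the subject here, with transcript levels measured by array in microdissected meristems of Arabidopsis thaliana roots. Members were the probe sets whose gene symbol in the platform annotation starts with GST or ATGST, which gave 14 genes, each with 1 probe set, of 22746 probe sets without the controls. There were 11 genes of the tau class, 2 of the phi class (GSTF4 and GSTF13, the last listed as ATGSTF13) and 1 of the lambda class (GSTL3). The study compared wild-type plants (3 arrays) with 35S:miR396 plants (3 arrays), where a constitutive viral promoter active in most cells drives the microRNA miR396. All plants were untreated, were grown on agar plates with sucrose in long days, and were 7 days old after sowing. The samples are labelled as biological replicates, but whether they came from separate sowings and from 1 or more transgenic lines was not stated in the labels, so a p-value covers only the spread among these 6 samples, which may be technical. No array of a vector control was analysed here.

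GSTs join the tripeptide glutathione to reactive or toxic compounds, or carry and reduce them with its help, and the products are moved to the vacuole. The tau class is the largest in plants, is made of many tandem gene copies, and is known for its induction by herbicides and other foreign compounds. The phi class shares this detoxifying role and includes carriers of flavonoids. Lambda GSTs use a cysteine in place of the usual serine and act in thiol transfer rather than in conjugation.

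Of the 14 genes, 6 were bright enough to be tested and 8 were not. To be tested, a probe set had to reach 4 in 3 or more of the arrays on the log2 GCRMA scale, the authors' normalized signal. The tested genes were GSTU22, GSTU25, GSTU26, GSTU27 and GSTU28 of the tau class and GSTF13 of the phi class. GSTU28 reached the level in 5 arrays and the other 5 genes in all 6, so that no gene passed only because 1 group was high. In 35S:miR396, the tau genes GSTU22 and GSTU26 rose, the phi gene GSTF13 fell, and the other 3 did not reach an adjusted p under 0.05 in limma. This test called 2838 of 11364 probe sets on the whole array, or 25.0%, with 12.7% higher and 12.3% lower, and the 3 of 6 GST genes are to be read against that share. The median log2 fold change was 0.27 over the 6 GST genes and -0.01 over all tested probe sets. With so few arrays the precision is limited throughout.

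**Figure D1:**
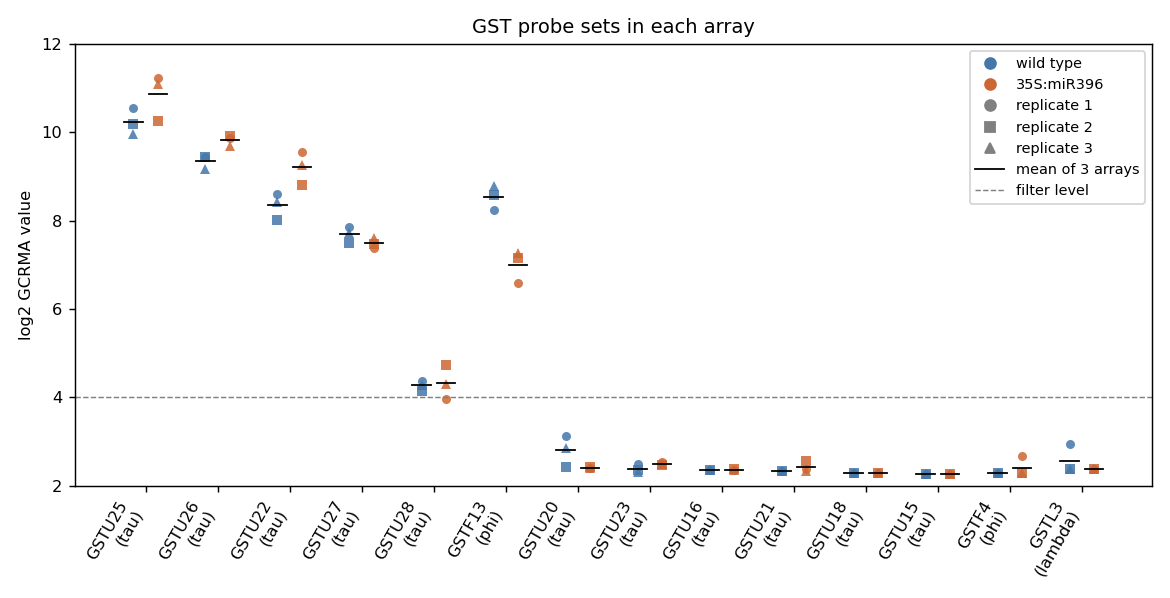
Log2 GCRMA value of the 14 GST probe sets in each of the 6 arrays, with wild type in blue, 35S:miR396 in orange, a symbol for each replicate, a bar for the mean of 3 arrays and a dashed line at the filter level of 4. The arrays of the groups stand apart for GSTU26, GSTU22 and GSTF13, as they do for 45.7% of all tested probe sets. Near the floor in every array lie 8 genes.

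The arrays of 35S:miR396 were not equally far from wild type. Over the 1438 probe sets called higher on the whole array, the median distance from the wild-type mean was 0.76, 0.50 and 0.62 (log2) in replicates 1, 2 and 3 of 35S:miR396. Over the 1400 called lower it was -0.56, -0.38 and -0.48. Of the root meristem markers on a list of 11, 4 had a named probe set, and the factor BBM and the quiescent-centre gene AGL42 rose by 1.50 ± 0.14 and 0.68 ± 0.14 (log2, SE). JKD did not pass the test, at -0.07, and ACR4 lay below the filter. The summed log2 level of the 4 markers ran from 20.3 to 20.5 in wild type and from 22.1 to 23.2 in 35S:miR396. The root-hair genes EXP7 and EXP18, the 2 of 7 markers of mature epidermis with a named probe set, lay between 2.25 and 2.38 in every array. The markers of root cap, mature endodermis, vasculature and green tissue were not analysed here, and the part of cell type in the GST values was not tested. In such bulk samples, fewer cells of a type and less RNA per cell cannot be told apart. MiR396 and its GRF target genes were not analysed here, so the genotype rests on the labels.

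GSTU22, a tau-class enzyme, had the largest rise of the 6 tested GST genes. Its log2 values were 8.60, 8.01 and 8.43 in replicates 1, 2 and 3 of wild type and 9.55, 8.80 and 9.27 in those of 35S:miR396. The lowest array of 35S:miR396, replicate 2, lay just above the highest of wild type, so that the groups did not overlap. Over all tested probe sets, 45.7% had groups that did not overlap. The mean went from 8.35 ± 0.30 to 9.20 ± 0.38 (SD, n = 3), a 1.81-fold rise with a 95% interval from 1.27-fold to 2.57-fold (log2 fold change 0.86 ± 0.22, SE; adjusted p = 0.0299 by limma). The spread of its arrays was wide: its pooled SD of 0.34 lay at percentile 92.2 of the tested probe sets, whose median was 0.13. Its call rested on all 3 wild-type arrays and on replicates 1 and 3 of 35S:miR396. The adjusted p was 0.0506, 0.0939 and 0.0730 without replicates 1, 2 and 3 of wild type, at values of 0.98, 0.69 and 0.90. It was 0.0770 and 0.0923 without replicates 1 and 3 of 35S:miR396, at values of 0.68 and 0.82. Without replicate 2 of 35S:miR396 the value was 1.06 and the adjusted p was 0.00841, where 33.6% of all tested probe sets were called. With the replicate number as a block, the SE of GSTU22 was 0.07 and its adjusted p was 0.00274 by limma.

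GSTU26, a tau GST known for its induction by herbicides, rose by less but with less spread. In the order of the replicates, wild type read 9.44, 9.44 and 9.17, against 9.87, 9.92 and 9.68 in 35S:miR396. Every array of 35S:miR396 lay above every wild-type array, and replicate 2 was the highest. The rise was 1.39-fold (95% interval from 1.18-fold to 1.63-fold; log2 fold change 0.47 ± 0.10, SE; adjusted p = 0.0168 by limma). Its pooled SD of 0.14 was close to the median of all tested probe sets. Its call stood when each array was left out in turn, with values from 0.39 to 0.55, but often narrowly. The adjusted p by limma was 0.0425, 0.0486 and 0.0438 without replicates 1, 2 and 3 of wild type. It lay only just below the threshold without replicate 1 of 35S:miR396, and was 0.0277 and 0.0314 without replicates 2 and 3.

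GSTU25, a tau GST that acts on the explosive TNT and the neighbour of GSTU26 on the chromosome, varied more between arrays. Wild type read 10.55, 10.19 and 9.97, against 11.22, 10.26 and 11.10 in 35S:miR396. Replicates 1 and 3 of 35S:miR396 lay above all wild-type arrays, but replicate 2 lay within the wild-type range, 0.02 above the wild-type mean. The difference of 0.62 ± 0.26 (log2, SE) did not pass the test (adjusted p = 0.120 by limma), with a 95% interval from 0.01 to 1.24. Without replicate 2 of 35S:miR396 it passed, at 0.92 with an adjusted p of 0.0091, and 4 of the 6 GST genes were then called, where 33.6% of all tested probe sets were. Its pooled SD of 0.43 was the widest of the 6 genes, at percentile 95.4.

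The other tested tau genes did not pass the test. GSTU27 had values of 7.85, 7.50 and 7.72 in wild type and 7.39, 7.47 and 7.60 in 35S:miR396. The groups overlapped, with a difference of -0.20 (95% interval from -0.47 to 0.06; adjusted p = 0.214 by limma). GSTU28, close to the filter level, had values of 4.38, 4.15 and 4.29 in wild type and 3.97, 4.72 and 4.30 in 35S:miR396. The wild-type arrays lay inside the range of 35S:miR396, and the difference was 0.06 (95% interval from -0.40 to 0.52; adjusted p = 0.847 by limma). Its sign changed in 4 of 13 alternatives, among them both further scalings of the arrays, where it was -0.02.

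GSTF13, of the phi class, had the largest change of the 6 tested GST genes, and it was a fall. Wild type read 8.24, 8.59 and 8.78, against 6.58, 7.16 and 7.27 in 35S:miR396. The groups were far apart: the highest array of 35S:miR396 lay below the lowest wild-type array, and replicate 1 was the lowest of all. The mean went from 8.54 ± 0.27 to 7.01 ± 0.37 (SD, n = 3), a 2.89-fold fall with a 95% interval from 2.06-fold to 4.06-fold (log2 fold change -1.53 ± 0.21, SE; adjusted p = 0.00477 by limma). It ranked 50 among the 1400 probe sets called lower, while GSTU22 ranked 455 and GSTU26 ranked 1013 among the 1438 called higher. The call stood when each array was left out in turn, from -1.68 (wild-type replicate 1 left out) to -1.32 (replicate 1 of 35S:miR396 left out).

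**Figure D2:**
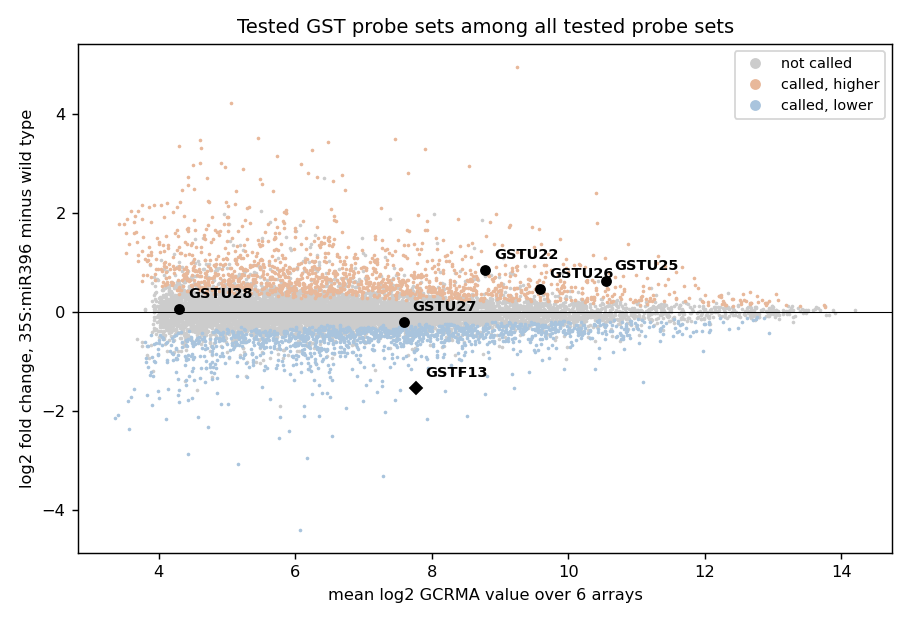
Log2 fold change (35S:miR396 minus wild type) against the mean log2 GCRMA value over 6 arrays for the 11364 tested probe sets, coloured by their call, with the 6 tested GST genes in black (circles for tau, a diamond for phi). GSTF13 lies at -1.53 in the outer part of the cloud of lower probe sets, and GSTU22, GSTU25 and GSTU26 lie between 0.47 and 0.86.

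The annotation named a probe set for 11 of the 28 tau genes and 2 of the 13 phi genes listed. The tau and phi classes were compared through the tested genes, which are 5 tau genes and 1 phi gene. Of the tau genes 2 rose and 3 did not pass the test, with a median log2 fold change of 0.47 and a range from -0.20 to 0.86. The single tested phi gene fell by 1.53. To set the changes of 2 genes against each other, the difference of their log2 values was taken within each array and compared between the groups. For GSTU22 minus GSTF13 it was 0.35, -0.57 and -0.35 in wild type, against 2.96, 1.64 and 2.00 in 35S:miR396. Its change of 2.39 was the largest of the 5 pairs, and for GSTU25 and GSTU26 the changes were 2.16 and 2.01. Against GSTU28 and GSTU27, which did not pass the test by themselves, GSTF13 still differed by 1.59 and 1.33. In all 5 pairs the groups did not overlap, but every pair contains GSTF13, whose own groups did not overlap. Over tested probe sets taken by themselves, 45.7% had groups that did not overlap, and no such share was computed for differences of 2 genes. The two-sided exact permutation p was 0.10 in each of the 5 pairs, which is the smallest that 3 arrays against 3 allow. It was 0.10 after adjustment over the 5 pairs, so this test cannot fall below 0.05 here, whatever the size of the difference. All 5 pairs share the arrays of GSTF13 and are not independent.

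Within the tau class, 10 pairs were compared in the same way. The change of GSTU22 exceeded that of GSTU27 by 1.06, that of GSTU25 did so by 0.83 and that of GSTU26 by 0.68, each with an exact permutation p of 0.10 (0.333 adjusted over the 10 pairs). The exact permutation p of the other 7 pairs ran from 0.20 to 0.80. The neighbours GSTU25 and GSTU26 differed by 0.15 in their change (exact permutation p = 0.80), which does not show that they changed alike.

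The 8 genes below the filter were GSTU15, GSTU16, GSTU18, GSTU20, GSTU21 and GSTU23 of the tau class, GSTF4 of the phi class and GSTL3 of the lambda class. Their log2 values lay between 2.25 and 3.13 in all arrays. Dim signals are drawn down to a floor value by GCRMA, and GSTU15, GSTU16, GSTF4 and GSTL3 repeated 1 exact value in 5 of the 6 arrays. GSTU20, which binds the jasmonate-conjugating enzyme FIN219, stood at 3.13, 2.42 and 2.86 in wild type and 2.40, 2.42 and 2.40 in 35S:miR396. GSTF4 stood at 2.66 in replicate 1 of 35S:miR396 and at 2.28 in the other 5 arrays, and GSTL3 at 2.94 in replicate 1 of wild type and at 2.38 in the others. These values are too near the floor to show a difference, and they do not show that the genes are silent.

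Several of the genes lie in tandem clusters. GSTU20, GSTU21, GSTU22 and GSTU23 follow each other among the protein-coding genes of chromosome 1, and of these 4 GSTU22 passed the filter and the other 3 stayed between 2.31 and 3.13. Probe sets bind with unequal strength, so these signals do not rank the transcript levels of the copies. GSTU25 and GSTU26 are direct neighbours on the same chromosome and both passed the filter. GSTU15 and GSTU16, a further pair with a few genes between them on that chromosome, both lay near the floor. GSTU19, beside GSTU20, and GSTU24, beside GSTU25, were not analysed here. Among the 2 protein-coding genes on each side of the 6 tested genes, 5 others had a named probe set, of which 2 passed the filter. AT1G17160, next to GSTU24, fell by 0.48 on the log2 scale (adjusted p = 0.0124 by limma), opposite to the difference seen at GSTU25 and GSTU26, and AT1G53660, near GSTU28, stood at -0.16 (adjusted p = 0.509). Tandem copies are alike in sequence, and to what extent a probe set also binds RNA of a neighbouring copy was not measured.

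The genes whose arrays were most like those of the 3 called GSTs were found among 867 tested probe sets with 1 gene and a symbol of their own. Likeness was the root mean square (RMS) difference of the log2 values over the 6 arrays, each gene centred on its own mean. Nearest to GSTU22 were MGL, a methionine gamma-lyase, at 0.11, SWEET16, a sugar transporter of the vacuole, at 0.15, and UGT73B4, a glucosyltransferase of xenobiotics, at 0.15, where the median of all was 0.54. SWEET16 rose by 0.94 (adjusted p = 0.0195 by limma), but its call was lost without wild-type replicate 2 (0.75) and without replicate 1 (0.80) or 3 (1.01) of 35S:miR396. MGL, at 0.86, did not pass the test (adjusted p = 0.0631 by limma). It passed without replicate 2 of 35S:miR396 (1.12, adjusted p = 0.0162), with the replicate number as a block (adjusted p = 0.0167) and with array weights (1.00, adjusted p = 0.00872). Those 3 settings called 33.6%, 25.0% and 41.8% of all tested probe sets. Nearest to GSTU26 were ALATS, an alanyl-tRNA synthetase (0.07), WLIM1, an actin-binding LIM protein (0.08), and CYS1, a cystatin (0.10), where the median was 0.32. These 3 rose, but WLIM1, at 0.45, missed the threshold when any 1 of 4 arrays was dropped, namely wild-type replicate 2 (0.45), wild-type replicate 3 (0.35), 35S:miR396 replicate 1 (0.39) or 35S:miR396 replicate 3 (0.51). Nearest to GSTF13 were ASPGB1, an asparaginase (0.23), SCPL46, a serine carboxypeptidase-like protein (0.27), and TBL25, of a family of cell wall acetylation proteins (0.31), where the median was 0.81. All 3 passed the test, at log2 fold changes of -1.14, -1.47 and -1.01. SCPL46 met the filter through its wild-type arrays (5.04, 5.02 and 5.36). In 35S:miR396 it stood at 3.28, 4.24 and 3.51, partly below the filter level of 4. SWEET16 and MGL were near that level in wild-type replicate 2, at 3.95 and 4.06. The RMS differences describe 6 arrays in 2 groups, and since the genes were picked for small distances, a shared size of change or order of arrays was fixed by that choice.

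**Figure D3:**
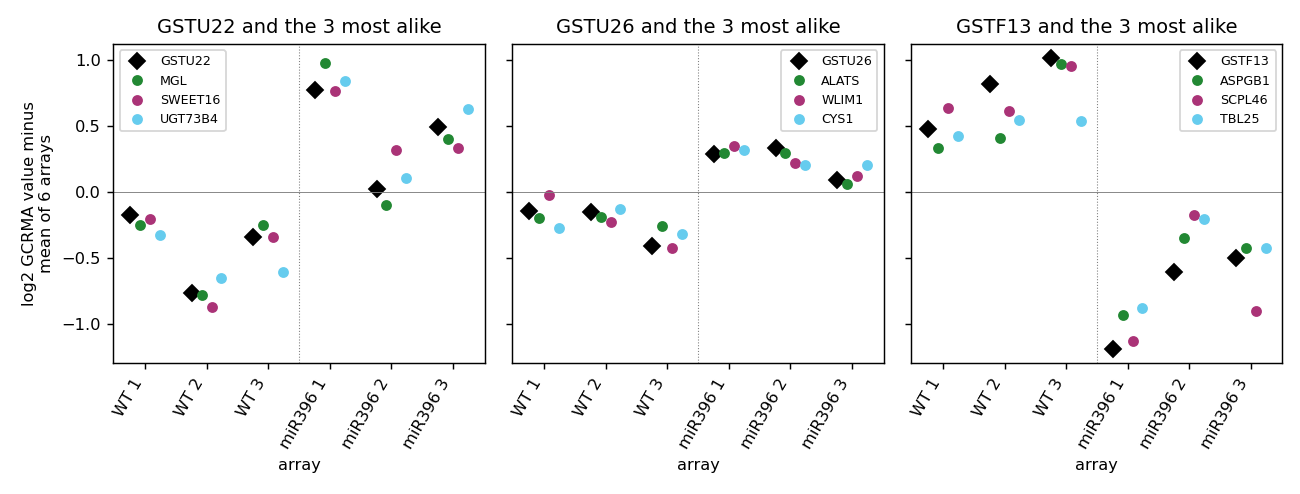
Log2 GCRMA value minus the mean of 6 arrays, by array, for GSTU22, GSTU26 and GSTF13 (black diamonds) and the 3 genes with the smallest RMS difference from each (coloured points). The genes were picked for this closeness, at RMS differences from 0.07 to 0.15 for GSTU26 and GSTU22 and from 0.23 to 0.31 for GSTF13.

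Few genes around the GSTs in glutathione metabolism could be read. Of 80 genes on 4 lists (glutathione synthesis and redox cycling, conjugate transport and turnover, sulfate assimilation, and the response to xenobiotics), the annotation named a probe set for 12, and 9 passed the filter. Of these 2 rose, 1 fell and 6 did not pass the test, again beside 25.0% of all tested probe sets. In redox cycling 1 of 3 tested genes fell and 2 did not pass, with a median log2 fold change of -0.05. MDAR2, a monodehydroascorbate reductase that regenerates ascorbate, fell from 11.08, 11.05 and 11.04 in wild type to 10.17, 10.35 and 10.24 in 35S:miR396. Its arrays hardly varied, and the fall of 0.80 ± 0.06 (log2, SE; adjusted p = 6.05e-04 by limma) was larger than the spread in either group. The glutathione reductases GR1 and GR2, which recycle oxidized glutathione, stood at -0.05 (95% interval from -0.24 to 0.14) and 0.01 (-0.22 to 0.23).

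In sulfate assimilation, which supplies the cysteine of glutathione, 1 of 3 tested genes rose and 2 did not pass (median 0.07). APS4, an ATP sulfurylase that activates sulfate, rose from 6.54, 6.45 and 6.03 to 7.57, 7.13 and 7.19, by 0.96 ± 0.17 (log2, SE; adjusted p = 0.0108 by limma). Its arrays did not overlap between the groups. APS3, another ATP sulfurylase, stood at -0.06, and SIR, the sulfite reductase, at 0.07. In the response to xenobiotics 1 of 2 tested genes rose and 1 did not pass. UGT73B4 rose from 7.67, 7.35 and 7.39 to 8.84, 8.10 and 8.63, by 1.05 ± 0.19 (SE; adjusted p = 0.0111 by limma), and the closely related UGT73B5 stood at 0.12 (95% interval from -0.44 to 0.68). UGT73B4 was among the genes picked for their likeness to GSTU22, and its call was lost without wild-type replicate 2 (0.99, adjusted p = 0.0508). The turnover gene GGCT2;3, a gamma-glutamylcyclotransferase, stood at -0.20 and did not pass the test. MGST, a membrane-bound GST outside the soluble classes that the annotation names only by its locus AT1G65820, stood at 0.16 (95% interval from -0.02 to 0.34; adjusted p = 0.153 by limma). Its groups did not overlap, and its value without replicate 3 of 35S:miR396 was 0.09. It passed the test with array weights (0.26, adjusted p = 0.0155), a setting that called 41.8% of all tested probe sets.

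**Figure D4:**
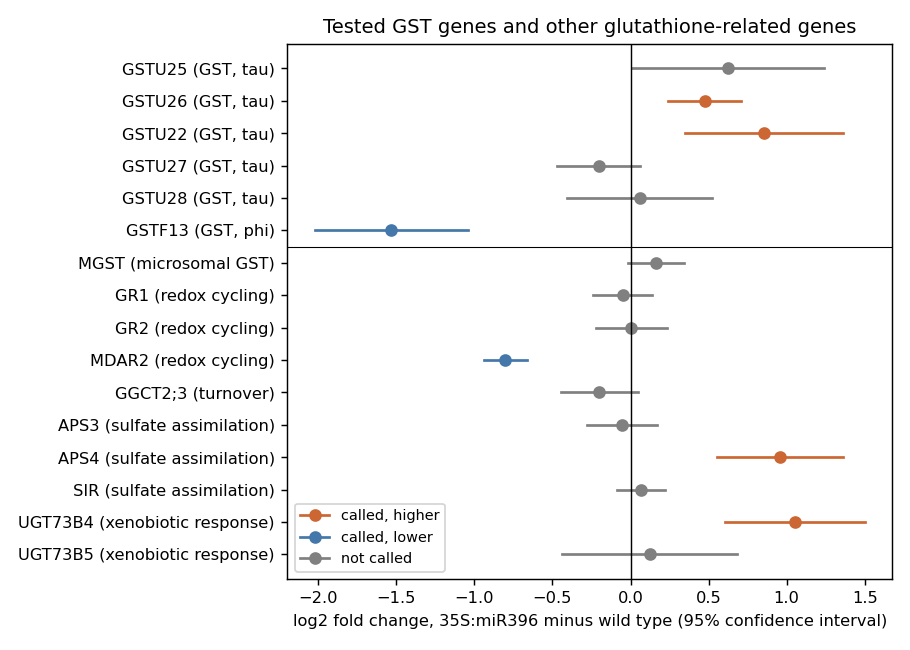
Log2 fold change (35S:miR396 minus wild type) with its 95% confidence interval for the 6 tested GST genes (above the line) and for MGST and the 9 tested genes of the 4 related lists (below the line), coloured by the call. GSTF13 at -1.53 and MDAR2 at -0.80 lie to the left of 0, and GSTU26, GSTU22, APS4 and UGT73B4 to its right.

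The values of the 6 GST genes under 14 other settings kept their sign in 5 of the 6, GSTU28 being the exception. GSTF13 ran from -1.68 to -1.32, GSTU22 from 0.68 to 1.06, GSTU26 from 0.35 to 0.55 and GSTU25 from 0.44 to 0.92. GSTU27 ran from -0.30 to -0.07, the last with array weights, and stood at -0.12 without wild-type replicate 1. Without the filter, 4.14% of 22746 probe sets were called, and of the 14 GST genes only GSTF13 was called there (adjusted p = 0.0484 by limma), with GSTU26 at 0.0865 and GSTU22 at 0.149.

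**Figure D5:**
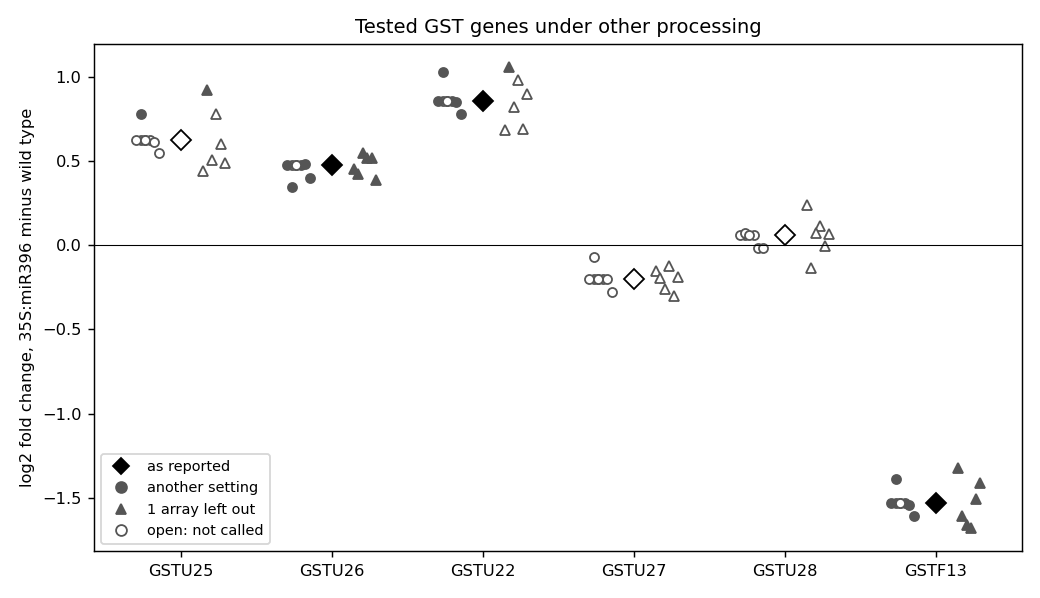
Log2 fold change (35S:miR396 minus wild type) of the 6 tested GST genes as reported (diamonds), under other settings (circles) and with 1 array left out (triangles), filled where the adjusted p was under 0.05 and open where it was not. GSTF13 stays between -1.68 and -1.32, and the triangles of GSTU22 are open but 1.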

How the data were processed

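Per the submitters' processing notes, the authors made the deposited log2 values with GCRMA (version not stated in the labels), a method that removes background according to probe sequence, sets the arrays to a common scale and combines the probes of a set. Biotin labelling was primed at the 3′ end of RNA, per the labels' protocols. That the scale is log2 was read from the values (2.25 to 14.3, array medians 3.88 to 3.99). Of 22810 probe sets, 64 were controls and left out.

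From these values, limma 3.58.1 in R 4.3.3 (lmFit with no replicate block, eBayes with a trend of the variance on the level) was fitted to the 11364 probe sets with a log2 value of at least 4 in at least 3 arrays. Tests were two-sided and Benjamini-Hochberg adjusted over all of them. The fit was also run on simulated data as a check of the code, and no result here rests on that run. Errors are SE for fold changes and SD over 3 arrays for levels. Genes were named from the platform annotation, which names 1 gene for 13513 probe sets, and all 14 GST symbols were the same in the gene table of assembly TAIR10.1, used for names and gene order only. Of 54 GST genes listed by class, 15 had a named probe set. Named were all GST probe sets, up to 4 called genes of each related list, and the 3 genes most like each of GSTU22, GSTU26 and GSTF13. The genes and lists were chosen with earlier results of these data known. Sequences were not used here.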

Additional observations from a re-analysis of the deposited data

How the results depend on the processing

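Other settings were a changed or no filter, no trend, further quantile normalization, median centring, the replicate block, array weights and each array left out. No filter with no trend together, and all settings for the related lists, were added after seeing the data. The count of called probe sets (2838) was 941 with no filter, 624 with no filter and no trend, 4749 with array weights, and 1052 to 3813 with 1 array left out: 1298, 1052 and 1499 without replicates 1, 2 and 3 of wild type, and 1606, 3813 and 1362 without those of 35S:miR396. Median centring called 3406, with 1158 higher and 2248 lower, where the reported fit had 1438 and 1400. The count of GST genes called (3) was 1 with no filter and 0 of 14 with no filter and no trend in limma, where 3 of them had an unadjusted p under 0.05. It was 2 to 4 with 1 array left out: 4 without replicate 2 of 35S:miR396, and 2 without any other, GSTU22 being lost each time. Of all tested probe sets, 33.6% were called without replicate 2 of 35S:miR396 and 9.26% to 14.1% without any other array. With array weights 4 GST genes were called, GSTU25 joining at 0.78, beside 41.8% of all tested probe sets. The median tau minus the median phi log2 fold change (2.01) was 0.76 with no filter, where 7 genes near the floor entered. It was 1.76 to 2.20 with 1 array left out. Except with no filter, the phi median was the value of GSTF13 alone. The genes called on the related lists (3) were 1 with no filter, MDAR2, and 1 with no trend as well, and 2 to 3 with 1 array left out; the call of UGT73B4 was the one lost without wild-type replicate 2. Over all tested probe sets, same-numbered arrays correlated in their deviations from the group means at 0.40, -0.09 and 0.14. The reported fit did not take the numbers as pairs. With the replicate block 2844 probe sets and 3 GST genes were called. The block lowered the SE of GSTU22 from 0.22 to 0.07 (adjusted p = 0.00274 by limma) and that of GSTF13 from 0.21 to 0.09 (adjusted p = 0.00118). For GSTU26 the SE went from 0.10 to 0.06, and for GSTU25, still not called, from 0.26 to 0.19. For GSTU27 it stayed at 0.11, and for GSTU28 it went from 0.20 to 0.21. The cause of these shifts was not tested. Signal near the GCRMA floor limits what can be said of 8 of the 14 genes.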
